A study of Homo sapiens with 24 samples.

Results

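ACTA2 encodes smooth muscle α-actin, a contractile actin best known from smooth muscle cells and myofibroblasts. It was read here from 1 of the 47231 probes on the arrays, ILMN_1671703, which was picked by its ID. The deposited table holds probe IDs without gene names, so the name ACTA2 rests on the HT-12 array annotation. The probe was chosen because its signal responded to IFNγ after SUZ12 loss. Its values in siCtrl and siSUZ12 cells are therefore a description without a test. Tests compared only groups of siBRM cells, which share no array with that contrast, but the fit took its spread from all 24 arrays. Results of all 24 arrays were known when the gene was chosen, so the p-values are not independent of that choice.

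The cells were SW-13, a human adrenocortical carcinoma line that lacks BRG1, an ATPase of the SWI/SNF chromatin remodelling complex, so every group here is BRG1-deficient. Each culture was transfected repeatedly with siCtrl or siSUZ12 at 50 nM, with or without 75 nM siBRM. IFNγ was then given for 6 hours or withheld. This gave 8 groups (siCtrl, siSUZ12, siCtrl + siBRM and siSUZ12 + siBRM, each without and with IFNγ) of 3 arrays, which the Methods describe as biological replicates. Knockdown was transient, and without gene names neither the loss of SUZ12 and BRM nor the markers of the cell line could be read from these arrays.

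SUZ12 is a core subunit of PRC2, the Polycomb complex that places the repressive mark H3K27me3 on histone H3. BRM is the SWI/SNF ATPase related to BRG1. IFNγ binds its receptor on the cell surface and induces genes that often carry GAS or ISRE elements near their start sites. ACTA2 is not a classical IFNγ stimulated gene, and in fibroblasts and smooth muscle it is driven mainly by SRF and its cofactors through CArG boxes and by TGFβ signalling.

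ACTA2 lies on the minus strand at chr10:90694831-90751096 of GRCh37 (GENCODE v44lift37). It has an inner and an outer start site, 38564 bases apart. Of its 6 annotated transcripts, 4 begin at the inner start, position 90712530, and 2 begin at the outer start, which lies among the start sites of FAS, the death receptor gene on the opposite strand. The nearest FAS start is 49 bases from the outer ACTA2 start as RefSeq places it. The antisense lncRNA gene ACTA2-AS1 overlaps the 3′ part of ACTA2. Where the probe lies in the transcript was not given in the sources used here, so the transcript behind the signal is not known, nor is whether the probe separates it from these neighbours.

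RefSeq gives ACTA2 2 promoter windows, 1 per start site, and both were searched on each strand for the GAS motif TTCNNNGAA, the ISRE core (GAAA, any 2 bases, GAAA) and the CArG box in its strict form. The stretches are shown because each holds a match to an IFN-type motif, in capitals, and both are written 5′ to 3′ along the direction of ACTA2. The sequences are from RefSeq (GRCh38.p14). Each window matched chr10 of GRCh37 exactly at 1 place in the orientation of its gene, and other chromosomes were not searched. The first stretch is chr10:90712528-90712780 and ends 3 bases past the inner start. The second is chr10:90751315-90751344, at the upstream end of the outer window, where the capitals are the complement of the ISRE core GAAAAAGAAA on the opposite strand.
ACTA2 inner start: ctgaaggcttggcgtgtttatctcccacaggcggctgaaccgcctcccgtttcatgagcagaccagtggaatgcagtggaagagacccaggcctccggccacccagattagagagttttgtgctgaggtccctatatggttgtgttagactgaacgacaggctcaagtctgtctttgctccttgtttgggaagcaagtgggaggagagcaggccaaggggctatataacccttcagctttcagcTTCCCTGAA
ACTA2 outer start: TTTCTTTTTCtgtgtgacaataaaaaacgg

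The GAS match TTCCCTGAA spans the inner start itself, at chr10:90712528-90712536. Such a match is present in 7.66% of 35116 RefSeq promoter windows of the same length, an ISRE core in 3.57% and a strict CArG box in 1.29%. No strict CArG box was found in either ACTA2 window, and none of the 3 motifs in the 3 FAS windows. With 1 base off the strict form allowed, a search added after the sequences were seen, the inner window held 2 matches, CCCTATATGG and CCTTGTTTGG, and the outer window none. At least 1 such match is present in 17.9% of the RefSeq windows. A match describes the letters and is no evidence of binding.

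Other actin mRNAs resemble that of ACTA2 and could in principle bind the same probe. Probes of this array type are 50 bases long. None of the 1300 windows of 50 bases along the canonical ACTA2 transcript (1349 bases) occurred identically in an annotated transcript of ACTA1, ACTB, ACTC1, ACTG1 or ACTG2, nor in those of FAS or ACTA2-AS1 in the same sense. Near matches were not counted.

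Deposited signals averaged 532 to 635 per array, and an array detected from 15223 to 16799 probes (detection p-value below 0.01). For all 24 arrays the closest other array by correlation was one of the same group. Signals are given after scaling, which set every array to a common mean. Background was not subtracted, so a signal near 100 can be background alone and folds over it are understated. Arrays give no counts, and the number of arrays limits the precision.

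Without siBRM, ACTA2 was undetected in siCtrl cells and detected in every siSUZ12 array, with a higher signal again after IFNγ. In untreated siCtrl cells the scaled signals of the 3 arrays were 94.8, 102 and 93.1, a mean of 96.7 ± 4.96 (SD, n = 3). In siCtrl cells with IFNγ they were 109, 113 and 91.1, a mean of 104 ± 11.5 (SD, n = 3). These arrays overlapped, no array of either group detected the probe (detection p-values from 0.0896 to 0.617), and the signals were 0.923 to 1.17 times the median of the undetected probes on the same array.

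In untreated siSUZ12 cells the 3 arrays gave 187, 194 and 175, a mean of 186 ± 9.77 (SD, n = 3). With IFNγ they gave 411, 390.0 and 422, a mean of 408 ± 16.2 (SD, n = 3). All 6 arrays detected the probe, and the arrays with IFNγ stood apart from those without, as they did at 4.33% of all probes in this direction. Relative to the median undetected probe of its array, ACTA2 was at 1.78 to 1.91 times untreated and at 4.08 to 4.48 times with IFNγ. A higher signal in a whole culture can come from more ACTA2 mRNA per cell or from more cells with it, which these arrays cannot tell apart.

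**Figure D1:**
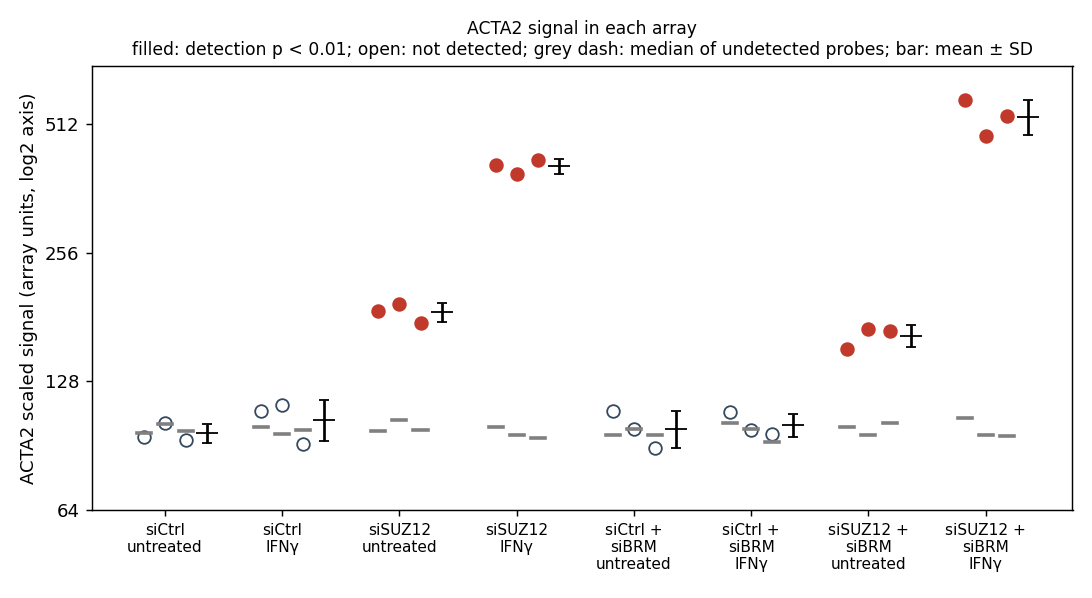
Scaled signal of the ACTA2 probe (log2 axis, array units) in each of the 24 arrays by group, with filled points for detection p-values below 0.01, grey dashes for the median of undetected probes on the array, and bars for mean ± SD of 3 arrays. The 12 arrays without siSUZ12 lie at background, from 89.5 to 113, and the 12 arrays with siSUZ12 lie from 152 to 581.

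As a log2 difference, the IFNγ effect on ACTA2 was 0.10 (95% interval -0.08 to 0.29) in siCtrl cells and 1.14 (95% interval 0.95 to 1.32) in siSUZ12 cells, or 1.07-fold and 2.20-fold. The siSUZ12 effect was 0.94 (95% interval 0.76 to 1.12) in untreated cells and 1.97 (95% interval 1.79 to 2.16) with IFNγ. The siSUZ12 arrays lay above the siCtrl arrays in both states, as they did at 15.7% of all probes untreated and at 12.4% with IFNγ. The change of the IFNγ effect by siSUZ12 was 1.03 (standard error 0.13). These values describe the contrasts on which the gene was chosen. In signal units siSUZ12 alone added 88.8, and IFNγ added 222 in siSUZ12 cells against 7.39 in siCtrl cells.

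The arrays of siBRM cells asked the same questions with their own controls. ACTA2 was again at background in siCtrl + siBRM cells and detected in siSUZ12 + siBRM cells. Untreated siCtrl + siBRM cells gave 109, 98.9 and 89.5, a mean of 99.2 ± 9.80 (SD, n = 3). With IFNγ they gave 108, 98.3 and 96.4, a mean of 101 ± 6.40 (SD, n = 3). No array of these groups detected the probe (detection p-values from 0.135 to 0.590), and the arrays overlapped. The IFNγ effect in siCtrl + siBRM cells was a log2 of 0.03 (95% interval -0.15 to 0.21), which did not pass the test (adjusted p = 0.976, limma with Benjamini-Hochberg adjustment). In the same comparison 0.159% of all probes rose ≥ 2-fold at an adjusted p-value below 0.05. The interval for ACTA2 reaches no more than a 1.16-fold rise in signal, although a fold over background understates the change in mRNA.

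Untreated siSUZ12 + siBRM cells gave 152, 169.6 and 168, a mean of 163 ± 9.49 (SD, n = 3). All 3 arrays detected the probe, with detection p-values of 0.00390, 0.00130 and 0.00260. The siSUZ12 effect before IFNγ was a log2 of 0.72 (standard error 0.09, 1.65-fold), with an adjusted p of 4.23e-07 (limma with Benjamini-Hochberg adjustment). This rise stayed under 2-fold, and at 5.04% of all probes the signal was higher in this comparison with an adjusted p-value under 0.05. With background subtracted by neqc, which estimates it from the detection p-values, it was 2.59-fold. That value rests on the offset of 16 added to a control signal that no array detected, and it is no bound.

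With IFNγ, siSUZ12 + siBRM cells gave 581, 479.9 and 533, a mean of 532 ± 50.7 (SD, n = 3), the highest of the 8 group means. IFNγ raised ACTA2 in these cells by a log2 of 1.70 (standard error 0.09, 3.25-fold, 95% interval 2.86 to 3.69), with all 3 arrays above all 3 untreated ones (adjusted p = 2.40e-16, limma with Benjamini-Hochberg adjustment). A rise of at least 2-fold at an adjusted p-value below 0.05 was found at 0.296% of all probes, arrays apart in this direction at 5.54%, and 52 probes had a larger IFNγ effect. By neqc, which also quantile normalizes and adds the offset of 16, the rise was 5.65-fold.

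Among IFNγ-treated siBRM cells, siSUZ12 raised ACTA2 by a log2 of 2.39 (standard error 0.09, 5.25-fold, 95% interval 4.62 to 5.97), again without overlap of the arrays (adjusted p = 2.34e-20, limma with Benjamini-Hochberg adjustment). A rise of ≥ 2-fold at an adjusted p-value below 0.05 was found in this comparison at 0.292% of all probes. Arrays were apart in this direction at 11.3% of probes, and 9 probes had a larger difference. The 14.6-fold given by neqc again rests on the offset, since no array detected the control signal.

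**Figure D2:**
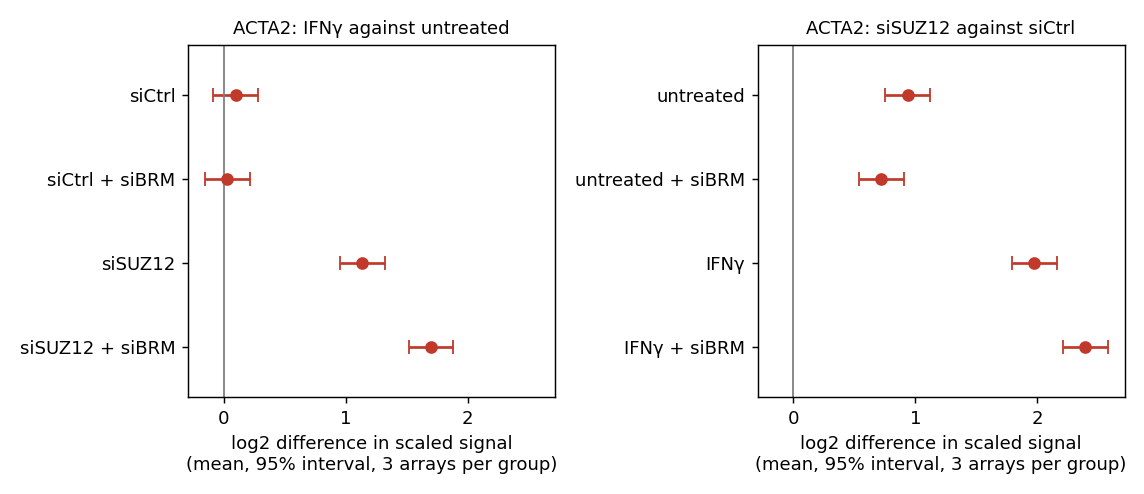
Log2 differences of ACTA2 scaled signal with 95% intervals from the fit of all 24 arrays, for IFNγ against untreated in the 4 siRNA backgrounds (left) and for siSUZ12 against siCtrl in the 4 conditions (right). The intervals of the IFNγ effect include 0 in siCtrl and siCtrl + siBRM cells and lie above it in siSUZ12 (1.14) and siSUZ12 + siBRM (1.70) cells.

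The difference between the IFNγ effects was itself tested. In siBRM cells siSUZ12 raised the IFNγ effect on ACTA2 by a log2 of 1.67 (standard error 0.13, 95% interval 1.41 to 1.93), with an adjusted p of 6.50e-11 (limma with Benjamini-Hochberg adjustment). The term from siCtrl + siBRM cells is a ratio of signals that none of the 6 arrays detected, so a change of ACTA2 below background could not be seen there and the size of the difference is uncertain. Of all probes, 0.0381% had such a rise of ≥ 2-fold at an adjusted p-value below 0.05, which was 18 probes. Only 6 of the 47231 probes had a larger change in siBRM cells, and 19 had a larger one in cells without siBRM, where ACTA2 was at 1.03. Of the 18 probes, 4 had a larger change with siBRM than without it, ACTA2 among them. The 18 were picked by their value with siBRM, and the share of all probes with a larger change with siBRM was not counted.

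**Figure D3:**
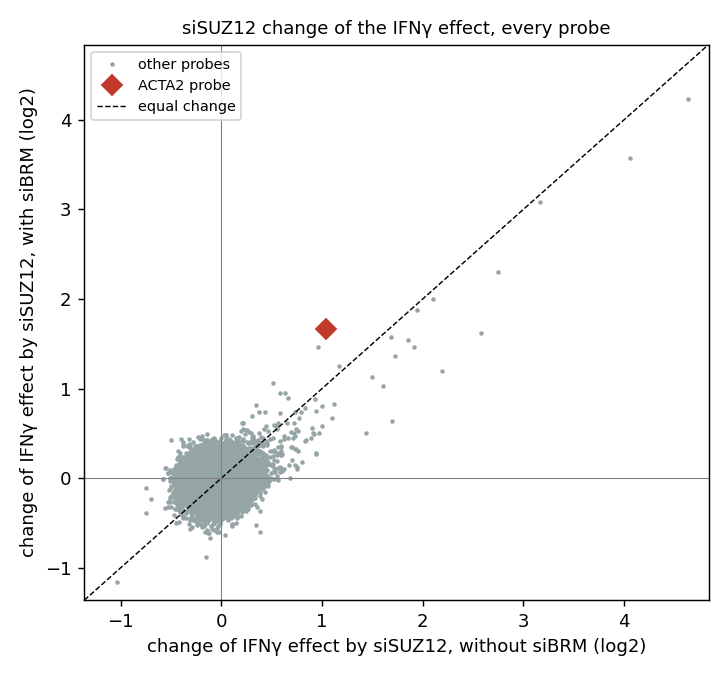
Change of the IFNγ effect by siSUZ12 (log2) without siBRM (x axis) and with siBRM (y axis), 1 point per probe for 47231 probes, with the line of equal change. The axes share no array, and the ACTA2 probe lies at 1.03 and 1.67, above the line.

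Ordered by mean signal, siSUZ12 + siBRM cells with IFNγ (532) came first, then siSUZ12 cells with IFNγ (408), untreated siSUZ12 (186) and untreated siSUZ12 + siBRM cells (163). The arrays of neighbours in this order did not overlap, although the last pair was separated by 169.6 against 175 at the nearest. Before scaling the arrays of that pair overlapped. Below them came siCtrl with IFNγ (104), siCtrl + siBRM with IFNγ (101), untreated siCtrl + siBRM (99.2) and untreated siCtrl cells (96.7), each overlapping the next.

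The addition of siBRM went with a lower ACTA2 signal in untreated siSUZ12 cells and a higher one with IFNγ. These contrasts use the arrays on which the gene was chosen and are given without a test. In untreated siSUZ12 cells the siBRM difference was a log2 of -0.18 (95% interval -0.37 to -0.00038). The scaled arrays did not overlap, as at 9.11% of all probes in this direction. Before scaling they did overlap, with replicate 3 without siBRM at 167 and replicate 2 with siBRM at 178. Without replicate 1 the difference was -0.13 (standard error 0.11). With IFNγ it was 0.38 (95% interval 0.20 to 0.56), without overlap, as at 10.2% of all probes in that direction. In siCtrl cells, where the probe was at background, it was 0.03 (95% interval -0.15 to 0.22) untreated and -0.04 (95% interval -0.22 to 0.14) with IFNγ. The IFNγ effect in siSUZ12 cells was thereby larger by a log2 of 0.56 with siBRM (95% interval 0.30 to 0.82). The siBRM cells also received more siRNA in total, 125 nM against 50 nM, and the knockdown of BRM and the higher siRNA dose cannot be told apart.

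In siBRM cells 118 of the 47231 probes were undetected in all 6 siCtrl + siBRM arrays and detected in all 6 siSUZ12 + siBRM arrays. In cells without siBRM 225 probes had the same pattern, and 85 probes had it in both. By limma with Benjamini-Hochberg adjustment, 2 of the 118 (1.69%, against 0.296% of all probes) passed as raised ≥ 2-fold by IFNγ in siSUZ12 + siBRM cells. They were ACTA2 and ILMN_1810910, and both were among the 85. This count was made after the values of ACTA2 were seen, and it includes ACTA2 itself. The 118 were also picked by detection in the IFNγ arrays in which the rise was counted. All 47231 probes carry no such filter, and an array detected at most 16799 of them. The 2 shares are therefore not comparable, and whether the pattern goes with an IFNγ rise was not tested.

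ILMN_1810910 was also the probe whose log2 signal followed ACTA2 most closely over the 24 arrays (Pearson r = 0.973), out of 18228 probes detected in at least 3 arrays. The next was ILMN_1657803 (Pearson r = 0.971). ILMN_1810910 was detected in 12 of the 24 arrays and ILMN_1657803 in 19. The files do not pair either ID with a gene. These correlations take in the differences between the 8 groups and were not computed within groups. Of the probes compared, 0.263% reached an r of 0.9. ILMN_1810910 had a mean signal of 101 in untreated siCtrl, 140.2 in untreated siSUZ12 and 261 in siSUZ12 cells with IFNγ. In siSUZ12 + siBRM cells its mean rose from 153 untreated to 311 with IFNγ.

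The lowest r were those of ILMN_1666208 (Pearson r = -0.936) and ILMN_1742224 (Pearson r = -0.930), both detected in all 24 arrays. The mean signal of ILMN_1666208 was 468 in untreated siCtrl cells, 342 in untreated siSUZ12 cells and 309 in siSUZ12 cells with IFNγ. With siBRM it was 465 in untreated siCtrl cells and 294 in siSUZ12 cells with IFNγ.

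**Figure D4:**
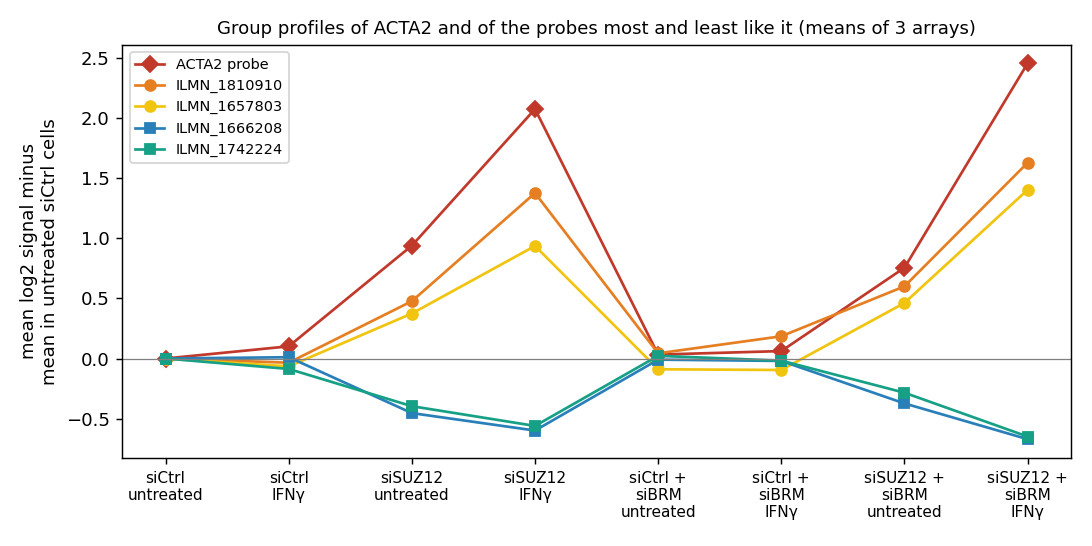
Mean log2 signal of 5 probes in the 8 groups (3 arrays each), each relative to its own mean in untreated siCtrl cells. ACTA2 and the 2 probes most like it are higher in the siSUZ12 groups and highest with IFNγ and siBRM, and the 2 probes least like it are lower in the same groups.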

How the data were processed

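The authors hybridized cRNA of SW-13 cells to Illumina HT-12 BeadChips and deposited the signal intensity of each probe as BeadStudio exported it, without normalization. Beside each intensity the authors deposited its detection p-value. The sources used here do not say whether background was subtracted before deposit. Undetected probes kept a median scaled signal of 92.3 to 105 per array, so background remained in the signals. Samples were grouped by their labels. Scaling multiplied each array so that all had the same mean, which was taken for the study's average normalization. A floor of 16 changed 0 of the signals before the log2 step. All 24 arrays and 47231 probes entered a limma fit (version 3.58.1, R 4.3.3) of 8 group means, and p-values were adjusted over all probes by Benjamini-Hochberg. Exact permutation of 3 against 3 arrays cannot go below 0.10, so none was used. Calls of a change needed a log2 difference of 1 and an adjusted p-value below 0.05. The fit was tested on simulated data. Likeness was Pearson's r of log2 signals over the 24 arrays, and the 2 probes with the highest and the 2 with the lowest r were named. The gene, the lists and the tests were chosen with earlier results of these data known. Lists of actin, smooth muscle and IFNγ pathway genes were planned, but 0 probe IDs were found in the gene tables, so they were not analysed here, and neither were actin proteins. Alternatives were quantile normalization, no scaling, neqc (background correction with an offset of 16), a floor of 64, a detection filter, a fit limited to the groups compared, trended and robust eBayes, the replicate block, calling by adjusted p-value without a fold, and omission of replicates or arrays. Plots used matplotlib 3.10.9 (Python 3.11.15).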

Additional observations from a re-analysis of the deposited data

Results flagged for a closer look

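The effect of IFNγ on ACTA2 differed between siCtrl + siBRM and siSUZ12 + siBRM cells by a log2 of 1.67 (interaction term of limma, adjusted p = 6.50e-11 with Benjamini-Hochberg adjustment). IFNγ gave a log2 difference of 0.03 in the first and 1.70 in the second, where all 3 arrays with IFNγ were above all 3 without. None of the 6 siCtrl + siBRM arrays detected the probe, so the first value compares signals at background and the size of the difference is uncertain. The gene was chosen for a difference of this kind, with results of all 24 arrays known.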

How the results depend on the processing

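The tested ACTA2 values kept their direction and their side of the adjusted p-value of 0.05 (limma) under every alternative run, 23 for the siSUZ12 change of the IFNγ effect in siBRM cells (log2 from 1.53 to 2.49) and 17 for each other comparison, except that the small IFNγ effect in siCtrl + siBRM cells changed sign, from -0.04 to 0.10, without passing the test. Background correction with neqc moved most values. Without siBRM it gave an IFNγ effect of 1.70 in siSUZ12 cells, a siSUZ12 effect of 1.82 untreated and 3.33 with IFNγ, a change of the IFNγ effect of 1.51, and a siBRM difference of -0.35 in untreated siSUZ12 cells. Leaving out a replicate gave from 1.85 to 2.06 for the siSUZ12 effect with IFNγ and from 0.90 to 1.12 for the change of the IFNγ effect, both lowest without replicate 3. The IFNγ effect in siCtrl cells, with ACTA2 at background, was 0.19 with neqc, 0.04 without siCtrl replicate 2 with IFNγ and 0.20 without siCtrl replicate 3 with IFNγ.

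Called probes were counted here in both directions, whereas the shares of called probes above took rises alone. Their counts went with neqc from 76 to 136 (IFNγ, siCtrl + siBRM), 140 to 236 (IFNγ, siSUZ12 + siBRM), 122 to 295 (siSUZ12, untreated siBRM cells), 146 to 316 (siSUZ12, siBRM cells with IFNγ) and 19 to 38 (change of the IFNγ effect). On the adjusted p-value alone they were 615, 1111, 3786, 3808 and 55. The replicate numbers were not taken to pair the arrays, since the labels name no shared batch and not every same-numbered pair correlated above 0.1. Deviations of same-numbered arrays of the groups compared correlated from -0.10 to 0.36, those of other numbers from -0.35 to 0.19, and 17 of 24 arrays correlated best with their own number. A replicate block left the change of the IFNγ effect in siBRM cells at 1.67 (adjusted p = 8.18e-11, limma) and changed no other call or count. By Spearman's rho ILMN_1810910 (0.863) and ILMN_1657803 (0.855) were no longer the 2 probes most like ACTA2, nor over the 12 siBRM arrays alone (Pearson r = 0.976 and 0.982). They ranked 47.5 and 67.5 by rho, with ties given their mean rank, and 8 and 4 over the siBRM arrays. Of 18228 probes, ILMN_1742224 ranked 18225 by rho and 18223 over the siBRM arrays, and ILMN_1666208 18175 and 18213. The small siBRM differences in siCtrl cells, with ACTA2 at background, changed sign in 2 of 17 alternatives each.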
